A study of Mus musculus with 46 samples.

Results

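MicroRNA (miRNA) levels were followed in mouse heart tissue during the first 24 h of storage at room temperature (RT), while the RNA was still largely intact. All heart arrays labelled RT with a storage time of 0, 1, 3, 6, 12 or 24 h were taken, which gave 6 of the 46 arrays of the series. The arrays of 0, 1 and 3 h formed the early group (n = 3) and those of 6, 12 and 24 h the late group (n = 3). The tissue came from male C57BL6 mice of an Il1a knock-out strain, so that every array of the series, controls included, carries the same deletion. The study divided a heart into pieces of about equal size, kept each piece in a tube at 18 to 20 °C and moved it to RNAlater after its storage time. The 6 arrays hold pieces of 1 heart hybridised on 1 slide, with 1 piece per time. All p-values therefore measure the spread between pieces and arrays and not between animals. Pieces of the same group also differ in storage time, so that change with time inside a group adds to its spread. The RNA integrity number (RIN), which is highest for fully intact RNA, was 9, 9, 8.6, 8.5, 8.5 and 8.2 in order of time and dropped to 4.6 and 2.2 in the pieces of 48 and 96 h. The labels give 12 h where the methods of the study give 14 h.

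MiRNAs are short RNAs that are cut from hairpin precursors by the enzymes Drosha and Dicer and loaded as one strand, the guide, into an Argonaute protein, which protects them from nucleases. Their seed pairs with target mRNAs and lowers their translation. In heart muscle, miR-1 and miR-133 are the most abundant muscle-specific miRNAs, while miR-208a, miR-208b and miR-499 are cut from introns of myosin heavy chain genes. After death tissue loses its oxygen supply and RNases act on all RNAs, and the fragments of longer RNAs can also bind to the probes of an array.

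Of the 31 miRNAs whose level changed with storage time, 28 had a mature sequence in RefSeq (build GRCm38.p6). The sequences of the 5 falling miRNAs detected on all 6 arrays are shown first, because 3 of them end in the same 3 bases. The seed, bases 2 to 8, is in capitals.
miR-3968: cGAAUCCCacuccagacacca
miR-6366: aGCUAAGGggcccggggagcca
miR-6995-5p: cUGGGAGUagaagggggaaacca
miR-652-5p: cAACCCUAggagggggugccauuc
miR-6412: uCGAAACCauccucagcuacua
MiR-3968 lies at chr11:115447969-115447989 on the minus strand within the span of Trim80, miR-652-5p at chrX:142739020-142739043 on the plus strand within Tmem164, and miR-6366 at chr16:18165093-18165114 on the minus strand outside any listed gene. MiR-6995-5p lies at chr19:47273562-47273584 within the span of Sh3pxd2a, and miR-6412 at chr10:122648412-122648433 within that of a lncRNA gene. The table used gives gene spans without exons or strand, so exon and intron could not be told apart.

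The rising miRNAs are shown for the steepest slopes among those with a sequence, together with miR-3473b, which shares a run of bases with miR-3473f.
miR-134-5p: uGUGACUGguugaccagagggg
miR-804: uGUGAGUUguuccucaccugga
miR-3473f: cAAAUAGGacuggagagaug
miR-3473b: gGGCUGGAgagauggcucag
miR-344i: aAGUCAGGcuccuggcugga
miR-341-3p: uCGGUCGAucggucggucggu
miR-721: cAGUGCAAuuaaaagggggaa
miR-7221-3p: uGACUGUGggcuggggacugg
miR-7226-5p: gCCAGGGAaguugauugugugaaggg
miR-7070-5p: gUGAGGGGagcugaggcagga
Among these, miR-134-5p (chr12:109734145-109734166) belongs to the imprinted Dlk1-Dio3 region, miR-804 (chr11:50357799-50357820) lies within the span of Cby3, miR-721 (chr5:136375777-136375797) within Cux1 and miR-7226-5p (chr4:118210539-118210564) within Ptprf. MiR-721 has the seed of miR-130a-3p and miR-301a-3p, neither of which was called. No 2 of the 28 called miRNAs with a sequence shared a seed.

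Each miRNA is measured by 30 spots of a 1-colour Agilent array, and the values given here are log2 values as the study deposited them after variance stabilizing normalization (VSN). Of 1881 miRNAs on the array, 1361 carried the scanner software's detection flag on none of the 6 arrays, 107 on 1 or 2, 75 on 3 to 5 and 338 on all 6. The 413 detected on at least 3 arrays were tested. None of the spots was saturated (0 on each array). Summed over detected miRNAs, arrays gave between 229565 and 409816 units of signal. With 6 arrays, their number sets the precision.

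The piece of 6 h stood apart from the other 5. Its array detected 490 miRNAs. The 3 early arrays detected 390, 397 and 423, and the other late ones 374 (12 h) and 381 (24 h). Of the detected miRNAs, 66 were flagged at 6 h only, while the other arrays had 0 to 7 of their own. These 66 lay close to the background, with a median log2 value of 2.23 at 6 h. The median size of the difference to the mean of the other 5 arrays was 0.49 log2 units at 6 h and 0.22 to 0.37 on the other arrays. Results are therefore given with and without this array where it changes them.

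The labelled tissue was checked on markers. MiR-1a-3p had log2 values between 14.22 and 14.93 on the 6 arrays, miR-133a-3p between 12.85 and 13.56 and miR-208a-3p between 7.32 and 8.21. The brain miRNAs miR-124-3p and miR-9-5p were each detected on 1 of 6 arrays. Of the 8 miRNAs listed for brain, 2 were detected on all 6 arrays. These were miR-128-3p, with values between 5.04 and 6.05, and miR-219a-5p, with values between 4.65 and 5.26. The liver miRNA miR-122-5p was also detected on all 6, with values between 5.06 and 6.63.

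The first question was whether the late group differs from the early group before the RIN falls. In the comparison of group means with limma, 0 of 413 miRNAs passed an adjusted p-value of 0.05 (0%), and the smallest adjusted p-value was 0.0698. At an unadjusted p-value below 0.05 there were 71 miRNAs (17.2%), of which 45 had the higher mean in the late and 26 in the early group. The exact Wilcoxon-Mann-Whitney test called 0 of 413 as well, since 3 arrays against 3 cannot give a p-value below 0.1. The median difference of all tested miRNAs was 0.0045 log2 units, and 68.3% of them differed by less than 0.5 log2 units. Late and early values did not overlap for 113 miRNAs, with 49 above (11.9%) and 64 below (15.5%). Without the array of 6 h, limma called 31 miRNAs, 15 higher and 16 lower.

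Among miRNAs detected on all 6 arrays, those with the smallest p-values are given as values only, since none of them passed. On the side of higher late values, miR-7070-5p had log2 values of 3.46, 3.55 and 4.31 in the early and 5.46, 5.45 and 5.82 in the late group, a difference of 1.80 ± 0.28 (SE, adjusted p = 0.0698). MiR-709 had 7.66, 7.67 and 8.68 early and 9.70, 9.74 and 9.98 late, a difference of 1.80 ± 0.32. For both the lowest late value lay above the highest early value. The other 8 were miR-5107-5p, miR-3473b, miR-3473a, miR-1894-3p, miR-7015-5p, miR-3082-5p, miR-3474 and miR-3077-5p, with differences between 0.99 and 1.69. On the side of lower late values, miR-135a-5p had 3.70, 3.66 and 4.05 early and 2.50, 2.72 and 2.92 late, a difference of -1.09 ± 0.22 (SE, adjusted p = 0.0951). The other 9 were miR-3968, miR-7009-5p, miR-652-5p, miR-6995-5p, miR-6366, miR-6412, miR-378d, miR-378a-3p and miR-1a-1-5p, with differences between -2.00 and -0.64. None of the miRNAs named in this comparison had overlapping groups.

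The second question was whether levels followed the storage time over all 6 arrays. For this a slope was fitted on log2(hours + 1), so that a slope of 1 is a doubling of the level each time the hours plus 1 double. With limma 31 of 413 miRNAs passed an adjusted p-value of 0.05. Of these, 24 rose (5.81% of those tested) and 7 fell (1.69%). Values climbed at every step from 0 to 24 h for 5 miRNAs (1.21%), and all 5 were among the 24 called. They dropped at every step for 5 miRNAs (1.21%), of which 4 were called. Time, RIN and the position on the slide changed together, since the arrays were laid out in order of time, and cannot be told apart.

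**Figure D1:**
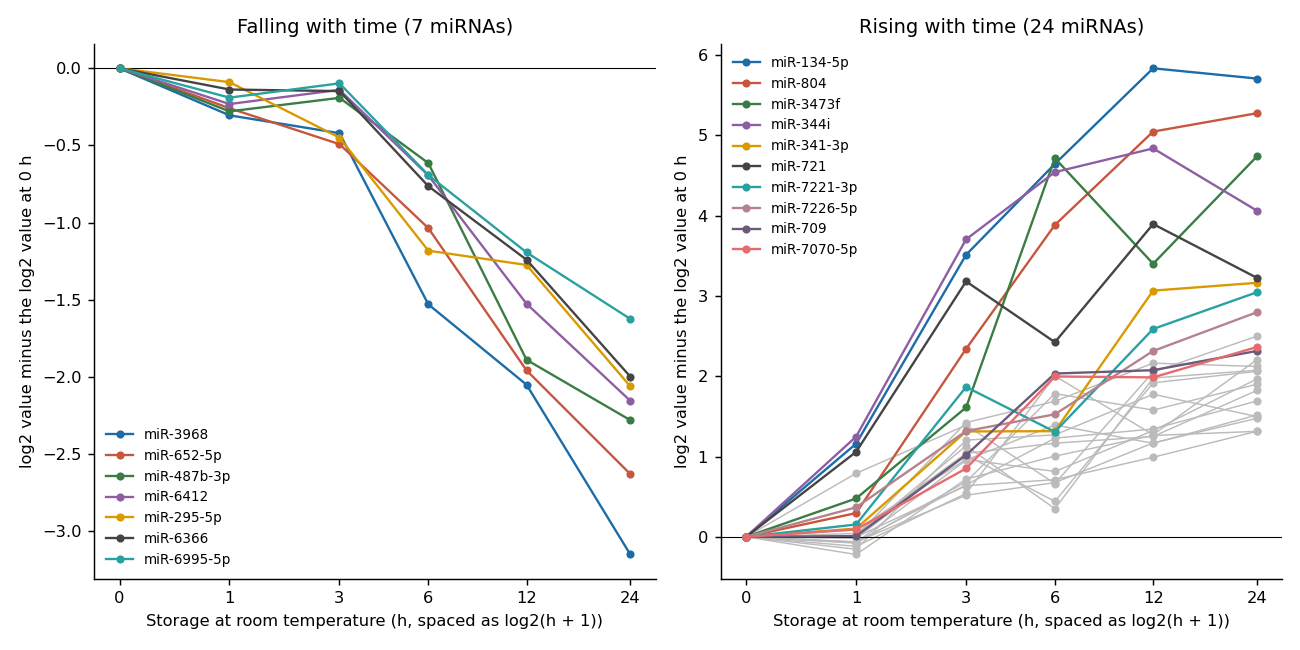
Log2 value of each called miRNA minus its value at 0 h, by storage time in heart at RT (1 array per time). The left panel shows the 7 falling miRNAs, which stayed within 0.49 log2 units of the 0 h value up to 3 h, and the right panel the 24 rising ones, with the 10 steepest in colour and the others in grey.

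The steepest falling slope was that of miR-3968. Its log2 values were 14.20, 13.89, 13.78, 12.67, 12.15 and 11.05 at 0, 1, 3, 6, 12 and 24 h, so that the value at 24 h was 8.88-fold lower than at 0 h. The slope was -0.68 ± 0.096 (SE, limma, adjusted p = 0.0111), and the late values lay below all early ones. In the degraded pieces miR-3968 had values of 10.18 at 48 h and 8.23 at 96 h. Its signal was 4.45% of the summed signal of all detected miRNAs at 0 h and 0.861% at 24 h.

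MiR-6366 fell from the highest level. Its log2 values were 17.27, 17.14, 17.13, 16.51, 16.03 and 15.28, with a slope of -0.43 ± 0.084 (SE, limma, adjusted p = 0.0251). Its values in the degraded pieces were lower still, at 14.34 and 12.38. The probes for this miRNA alone gave 37.5% of the summed signal in the piece of 0 h, which had become 21.9% by 6 h and 16.1% by 24 h. The summed signal of all detected miRNAs was 350979, 335871 and 409816 units in the early and 405564, 261671 and 229565 units in the late group, and its own trend did not pass (r = -0.59, exact permutation p = 0.231, adjusted 0.461; rho = -0.54, exact permutation p = 0.297, adjusted 0.497, n = 6; r = -0.40 without the 2 times farthest from the median). The call of miR-6366 was lost under 9 of 17 alternatives. Among them were quantile normalization (slope -0.089), normexp background correction (slope -0.17) and no scaling between arrays (slope -0.39). Of the 6 fits that left out 1 array, 2 kept the call. The cause was not tested.

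MiR-652-5p had log2 values of 8.82, 8.56, 8.33, 7.78, 6.86 and 6.19 and a slope of -0.58 ± 0.085 (SE, limma, adjusted p = 0.0119). The other arm of the same hairpin, miR-652-3p, had values of 6.01, 5.76, 6.11, 7.66, 5.71 and 5.90 and a slope of 0.026 (adjusted p = 0.925). The 5p arm was lower at each time than at the one before, while the 3p arm was within a range of 0.40 log2 units on all arrays but that of 6 h. In the pieces of 48 and 96 h the 5p arm had values of 6.39 and 6.94.

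MiR-6412 had log2 values of 6.29, 6.06, 6.15, 5.60, 4.77 and 4.14 (slope -0.47 ± 0.092 SE, adjusted p = 0.0251). MiR-6995-5p had 5.48, 5.29, 5.38, 4.79, 4.29 and 3.85 (slope -0.36 ± 0.078 SE, adjusted p = 0.0363), and its values of 5.85 and 6.25 at 48 and 96 h were above all of the first 24 h. The remaining falling miRNAs were not detected on all 6 arrays. MiR-487b-3p, of the Dlk1-Dio3 region, went from 4.61 at 0 h to 2.33 at 24 h. The lowest detected values of any miRNA on these arrays were 1.38 and 1.73. MiR-295-5p, of a cluster known from embryonic stem cells, lay near the background and was detected on the 3 early and on 0 of the late arrays.

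Of the 6 falling miRNAs with a sequence, 3 end in CCA (50%), namely miR-3968, miR-6366 and miR-6995-5p. Among all 348 tested miRNAs with a sequence 10 did (2.87%), and none of the 22 rising ones. The other 7 that end in CCA were not called. Among them miR-6988-5p (slope -0.32, adjusted p = 0.134) had late values below all early ones, whereas miR-212-3p, miR-223-3p, miR-3620-3p, miR-6908-5p, miR-7022-3p and miR-877-3p had slopes between -0.25 and 0.060 and groups that overlapped. The same 3 bases are known as the 3' end of mature transfer RNAs. Whether the probes of these miRNAs bound transfer RNA was not tested.

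The rising side was led by miRNAs that were close to the background at first. MiR-134-5p had log2 values of 1.54, 2.70, 5.05, 6.18, 7.37 and 7.24 and was detected from 3 h on (slope 1.36 ± 0.15 SE, limma, adjusted p = 0.00313). It was chosen for its slope after the values were seen, as was miR-341-3p, and neither was detected on all 6 arrays. MiR-804 had 1.33, 1.62, 3.67, 5.21, 6.37 and 6.60 and was also detected from 3 h on (slope 1.31 ± 0.13 SE, adjusted p = 0.00313). MiR-341-3p, like miR-134-5p from the Dlk1-Dio3 region, had 0.79, 0.89, 2.10, 2.10, 3.85 and 3.95 (slope 0.77). Values below the detection limit have no firm order, so that the size of these increases is uncertain.

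Among rising miRNAs detected on all 6 arrays, miR-344i was steepest, with log2 values of 2.93, 4.18, 6.64, 7.48, 7.77 and 6.996. Its slope was 1.00 ± 0.21 (SE, limma, adjusted p = 0.0353), and the call was lost under 8 of 17 alternatives. MiR-721 followed with 2.18, 3.24, 5.36, 4.60, 6.07 and 5.41 (slope 0.75 ± 0.17 SE) and miR-7221-3p with 2.98, 3.14, 4.85, 4.29, 5.57 and 6.03 (slope 0.69 ± 0.11 SE). For miR-721 and miR-7221-3p the value at 6 h was below that at 3 h, so that early and late groups overlapped. MiR-7226-5p rose at every step, from 3.47 through 3.83, 4.78, 4.99 and 5.78 to 6.26 (slope 0.62 ± 0.068 SE, adjusted p = 0.00313). MiR-709 rose at every step as well, and its values are given above (slope 0.58 ± 0.094 SE, adjusted p = 0.0152). In the degraded pieces miR-709 had 10.90 and 10.49 and miR-7226-5p 7.75 and 7.76.

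The share of the difference at 24 h that was already seen at 3 h is given as a description of the selected miRNAs, with no test. The array of 3 h had higher values, with a median over tested miRNAs of 4.89 against 4.43 at 0 h and 4.35 at 1 h, and its part in these shares was not tested. MiR-344i differed by 3.70 log2 units between 0 and 3 h, and by 0.36 between 3 and 24 h, while 3 h and 24 h pieces had RIN values of 8.6 and 8.2. Over the 24 rising miRNAs, the difference between 3 h and 0 h was a median of 49.2% of that between 24 h and 0 h, and for 11 of them it was over 50%. For the 7 falling miRNAs the median was 8.40%, and it was over 50% for 0 of them. With time in hours in place of log2(hours + 1), 5 miRNAs were called, all falling.

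The group of called miRNAs differed in composition from the rest. Numbers in miRNA names follow the order of registration, and 14 of the 24 rising miRNAs (58.3%) had a number of 3000 or higher, against 141 of the 413 tested (34.1%). For the falling miRNAs it was 4 of 7 (57.1%). The median share of G in the mature sequence was 48.1% for the 22 rising miRNAs with a sequence, 28% for the 6 falling ones and 30.2% for all 348. When the 348 were divided into 4 bins of 87 by their share of G, the lowest bin held 0 rising miRNAs, the next 2, the next 6 and the highest, with at least 43.5% G, 14. In that bin 64 of 87 miRNAs had a number of 3000 or higher, so that G content and late registration go together. These are descriptions of the called miRNAs, and no test of the composition was made.

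**Figure D2:**
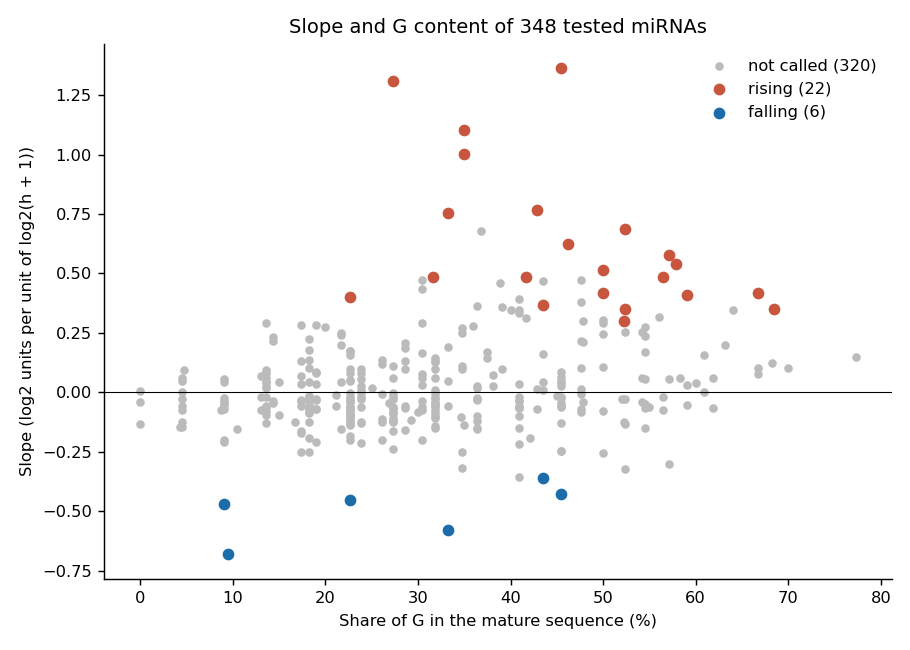
Slope over the first 24 h (log2 units per unit of log2(h + 1)) against the share of G in the mature sequence, for the 348 tested miRNAs with a RefSeq sequence, 1 point per miRNA. The highest of 4 equal bins, from 43.5% G on, holds 14 of the 22 rising miRNAs, and the falling ones are spread over the range.

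The miR-3473 family was listed because it had been noticed in this series before, so that its direction is not independent evidence. Of its 6 members, all tested, miR-3473b and miR-3473f rose with time (33.3%, against 5.81% of all tested) and none fell. MiR-3473f had log2 values of 2.20, 2.68, 3.82, 6.92, 5.60 and 6.94 (slope 1.103 ± 0.20 SE, limma, adjusted p = 0.0196), and miR-3473b 7.77, 7.65, 8.31, 9.77, 9.04 and 9.97 (slope 0.52 ± 0.12 SE, adjusted p = 0.0375). MiR-3473a (5.33, 5.22, 5.86, 7.27, 6.40 and 7.31) and miR-3473e (2.54, 2.57, 3.20, 5.70, 3.67 and 4.42) had the same shape without passing. These 4 share the 10 bases UGGAGAGAUG, and of the 348 tested miRNAs with a sequence, these 4 were the ones that contain it. MiR-3473c and miR-3473g lack this run and had differences of -0.060 and -0.11 between late and early. Without the array of 6 h, miR-3473a and miR-3473e were called too, and the slope of miR-3473f was 1.04.

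The 4 members were higher at 6 and 24 h than at 12 h, and so were miRNAs of blood cells. MiR-451a, which is made in red blood cells, had log2 values of 13.30, 13.22 and 13.15 early and 14.94, 13.59 and 14.62 late (difference 1.16 ± 0.36 SE, adjusted p = 0.151). MiR-144-3p, from the same transcript, had 9.59, 9.55 and 9.41 early and 11.30, 9.76 and 10.87 late, and miR-142a-3p of white blood cells 8.37, 8.28 and 8.41 early and 10.17, 8.35 and 9.58 late. All 11 miRNAs of the blood-cell list were detected on all 6 arrays, and their summed signal made up 2.44% to 3.02% of the array total in the early group and 8.66%, 5.18% and 11.8% at 6, 12 and 24 h. In units, it was 10191, 10134 and 9988 early and 35133, 13547 and 27160 late. Most of this sum came from miR-451a alone, with 8402, 8372 and 8058 units early and 29955, 11595 and 23474 late. The array total was lower at 12 and 24 h, where the shares of the heart-muscle list (12.5%, 12.5% and 14.4% early, 9.37%, 15.6% and 17.4% late) were higher as well. Of the 11, 0 passed the test for trend, 7 had the higher mean late, and the median difference was 0.37 against 0.0045 over all tested. When the 6 h array was left out, 6 had the higher mean late, and the median was 0.12 against -0.18 over all tested. With all 6 arrays, 4 had the lower mean late. Among them were miR-155-5p (5.44, 5.19 and 5.71 early, 4.88, 4.88 and 4.49 late) and miR-150-5p of lymphocytes (6.79, 6.63 and 7.08 early, 6.24, 6.21 and 6.24 late). The others were miR-486a-3p (5.80, 5.66 and 6.07 early, 5.96, 5.46 and 5.54 late) and miR-486b-3p (5.07, 4.97 and 5.36 early, 5.26, 4.66 and 4.96 late). MiR-486a-5p had the higher mean late (9.04, 8.91 and 9.13 early, 9.56, 8.92 and 9.38 late). In bulk tissue, fewer cells of a type and less RNA per cell cannot be told apart.

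With the log2 value of miR-451a as a covariate, 13 miRNAs were called for trend, 12 of them from the 31. The slopes of miR-3968 (-0.60), miR-652-5p (-0.59) and miR-804 (1.26) still passed, and miR-6366 (-0.39) did not. This fit was added after the values had been seen. The part of blood in the slopes was not tested beyond it.

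**Figure D3:**
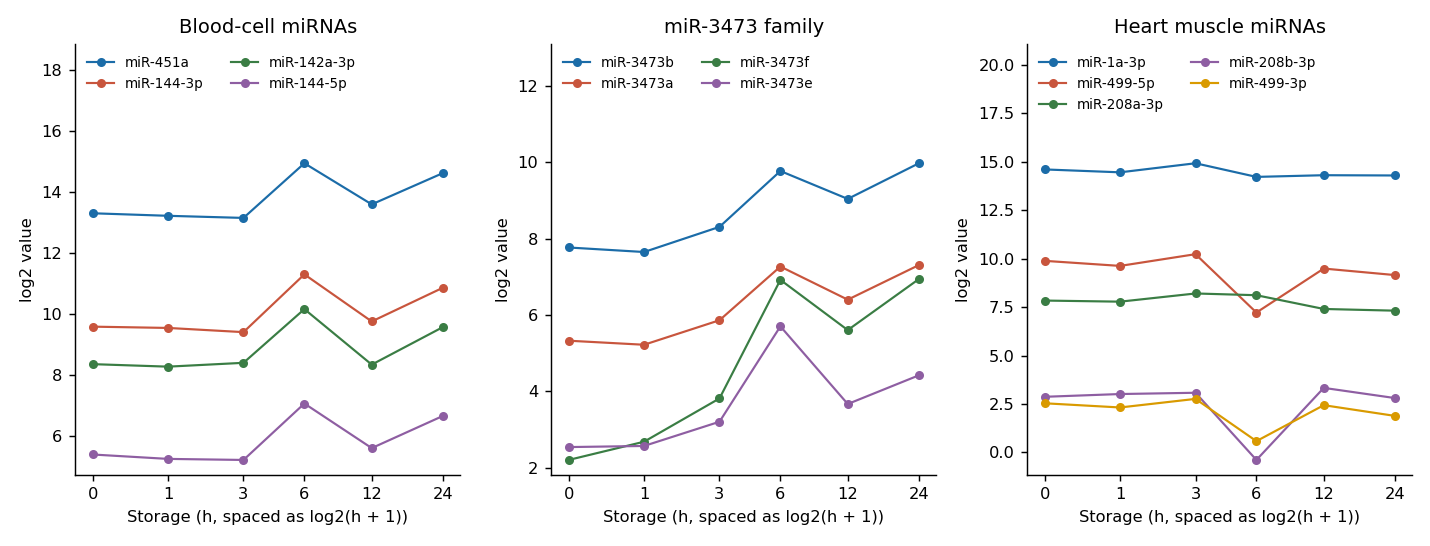
Log2 values on the 6 arrays of heart at RT by storage time, for miRNAs of blood cells, the 4 members of the miR-3473 family that share 10 bases, and miRNAs of heart muscle (1 array per time, a separate y axis in each panel). The blood-cell miRNAs and the 4 miR-3473 members are higher at 6 and 24 h than at 12 h, and miR-499-5p is lowest at 6 h.

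Of 12 miRNAs listed for heart muscle, 11 were tested and 0 were called for trend. All 11 had the lower mean in the late group (205 of all 413), with a median difference of -0.41, and for 7 of them the late values lay below all early ones (15.5% of all tested). MiR-1a-3p had log2 values of 14.61, 14.46 and 14.93 early and 14.22, 14.31 and 14.30 late. MiR-133a-3p had 13.23, 13.08 and 13.56 early and 12.85, 12.93 and 12.86 late. The late values of both were close together, and the lowest early value stood just above them.

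The myosin-gene miRNAs did not move together at 6 h. MiR-499-5p, at chr2:155622893-155622913 within the span of the myosin gene Myh7b, had log2 values of 9.89, 9.63, 10.23, 7.22, 9.49 and 9.16. Its value at 6 h was 2.46 below the mean of the other 5 arrays. MiR-499-3p of the same hairpin (2.54, 2.32, 2.77, 0.58, 2.44 and 1.89) and miR-208b-3p (2.87, 3.02, 3.08, -0.39, 3.33 and 2.81) were also lowest at 6 h, each close to the background and detected on 3 of the 6 arrays. MiR-208a-3p had 7.84, 7.78, 8.21, 8.12, 7.41 and 7.32 and was not low at 6 h. Without the array of 6 h, 10 of the 11 listed miRNAs had the lower mean late (250 of all 413) and miR-208b-3p was at 0.081, while the difference of miR-499-5p went from -1.29 to -0.59 and its slope was -0.14, which did not pass.

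At the other end, miR-218-5p exceeded the mean of the other arrays most at 6 h. Its log2 values were 4.02, 4.15, 4.51, 7.74, 4.13 and 5.20. MiR-5128 had 3.36, 3.32, 4.13, 6.80, 4.29 and 5.25. Both were named for their values at 6 h after these had been seen, and neither passed the test for trend on 6 arrays. Without that array 29 further miRNAs were called for trend, miR-5128 among them.

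In the miR-378 family all 5 members had late values below all early ones, against 64 of all 413 (15.5%). MiR-378a of this family is encoded within the gene of the coactivator Ppargc1b. The median difference was -0.61, against 0.0045 over all tested, and 0 of the 5 were called for trend. Without the array of 6 h the median was -0.54, against -0.18 over all tested, with differences between -0.61 and -0.22. MiR-378d had log2 values of 10.51, 10.45 and 10.85 early and 9.84, 10.07 and 9.92 late (difference -0.66 ± 0.20 SE, limma, adjusted p = 0.151). MiR-378a-3p had 10.28, 10.19 and 10.55 early and 9.65, 9.85 and 9.60 late. The lowest value of miR-378a-3p was at 24 h and that of the other 4 at 6 h.

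The clusters miR-17-92 and miR-106b-25, known from proliferating cells, had 9 members tested and 0 called. All 9 had the higher mean late (208 of all 413), with a median difference of 0.70, but in none did the groups separate. With the 6 h piece left out, the median was 0.36, 8 of the 9 had the higher mean late (163 of all 413), miR-19b-3p was at -0.096 and miR-20a-5p was called for trend. MiR-106b-5p had log2 values of 7.73, 7.71 and 7.91 early and 9.07, 7.83 and 8.62 late. MiR-20a-5p had 4.80 at 0 h, 7.09 and 7.07 at 1 and 3 h, and 8.23, 6.99 and 7.63 late. For each of the 9, the array of 12 h had the lowest of the late values.

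Of 13 miRNAs listed for stress and hypoxia, 9 were tested and 0 were called, with 3 higher and 6 lower late means. MiR-210-3p, which is induced by low oxygen, had log2 values of 5.44, 5.30 and 5.71 early and 6.17, 5.15 and 5.19 late. MiR-21a-5p had 9.79, 9.50 and 10.01 early and 10.94, 9.61 and 10.18 late. The groups of both overlapped, with the highest value of all 6 arrays at 6 h. For miR-22-3p, miR-34a-5p, miR-132-3p and miR-494-3p the late values lay below all early ones, with differences between -0.63 and -0.34. Over all tested, 64 of 413 had late values below all early ones (15.5%). The median of the 9 was -0.44, against 0.0045 over all tested. Without the array of 6 h it was -0.40, against -0.18, and 7 of the 9 had the lower mean late (250 of all 413).

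Abundant guide strands gave 0 calls, and their differences depended on the array of 6 h. The 9 let-7 guide strands had differences between -0.17 and 0.12, the 3 members of the miR-29 family between -0.11 and -0.077 and the 5 miR-30 guide strands between -0.32 and -0.11. Let-7a-5p had log2 values of 11.96, 11.80 and 12.28 early and 12.30, 11.70 and 11.79 late. Passenger strands, which are usually discarded when the guide is loaded, gave 0 calls as well, with differences between -0.36 and -0.053 for the 6 tested of let-7 and between -0.49 and -0.30 for the 6 of miR-30. The small medians of the let-7 guide strands (-0.086) and the miR-29 family (-0.091) were above 0 under quantile normalization (0.019 and 0.086) and without scaling between arrays (0.037 and 0.031). Without the array of 6 h they were -0.27 and -0.37, and that of the miR-30 guide strands went from -0.26 to -0.46, while the median over all tested miRNAs was -0.18.

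Vessel and stroma miRNAs gave 0 calls among 9 tested. MiR-126a-3p of endothelium had log2 values of 12.50, 12.26 and 12.73 early and 12.35, 12.11 and 11.87 late, and miR-143-3p of smooth muscle 8.87, 8.67 and 9.14 early and 8.92, 8.48 and 8.72 late. No member of the list had groups that separated over the 6 arrays, and 6 of the 9 had the lower mean late. Without the array of 6 h, all 9 had the lower mean late (250 of all 413). The list median then went from -0.23 to -0.34, against -0.18 over all tested. MiR-126a-3p at 12 and 24 h lay below all early values, while miR-143-3p at 24 h did not. The clusters of miR-23, miR-27 and miR-24 (5 tested, median -0.29), the miR-181 family (4 tested, -0.15), the miR-26 family (2 tested, -0.12), the group of miR-99, miR-100 and miR-125 (5 tested, -0.054) and the seed family of miR-15, miR-16 and miR-195 (6 tested, 0.062) had 0 calls. On the 5 arrays other than 6 h, these medians were -0.52, -0.51, -0.39, -0.38 and -0.087, in the same order. The last 3 medians changed sign under another scaling, to 0.0067 and 0.069 without scaling for miR-26 and for miR-99, miR-100 and miR-125, and to -0.12 under quantile normalization for miR-15, miR-16 and miR-195. Among 12 miRNAs in common use as references, 11 were tested and 0 called, with differences between -0.49 for miR-320-3p and 0.91 for miR-93-5p. Their median went from 0.0045 to -0.31 without the array of 6 h.

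**Figure D4:**
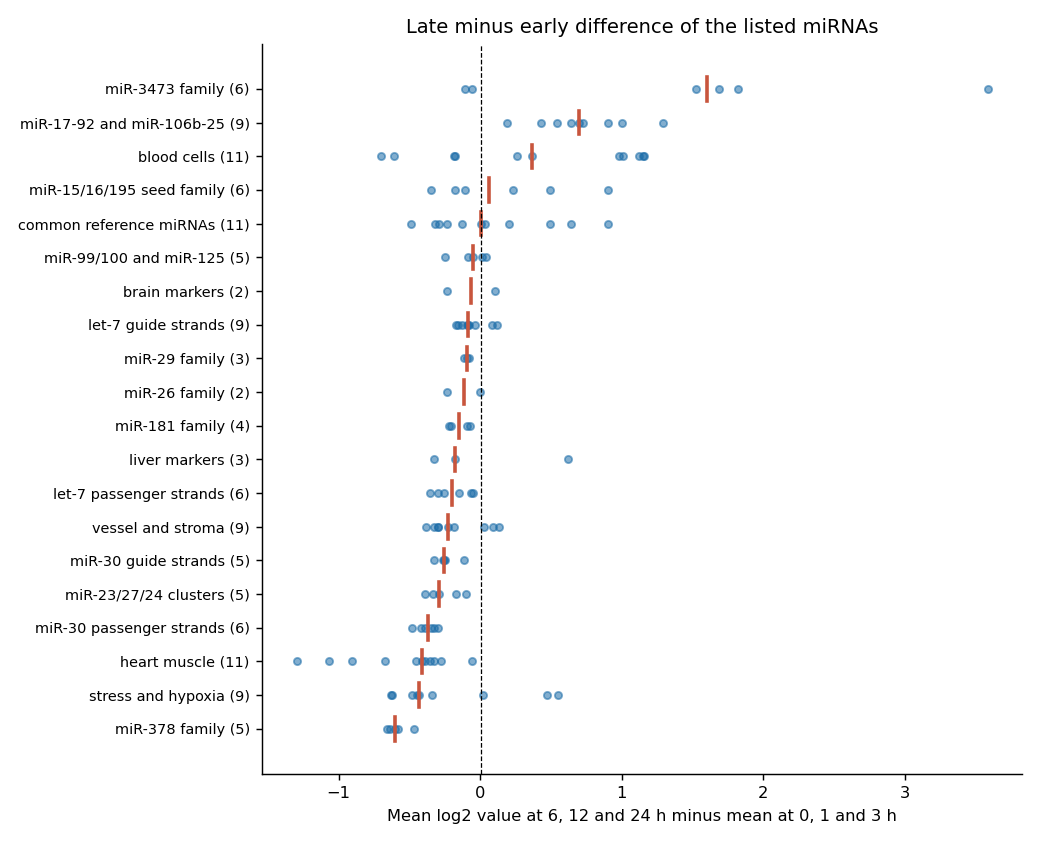
Mean log2 value of the late minus that of the early group for each tested member of the lists (points; number tested in brackets), with the median of each list (bar) and that of all 413 tested miRNAs (dashed line, 0.0045). The miR-378 family has the lowest and the miR-3473 family the highest median.

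Of 14 miRNAs linked to RNA integrity in this series, 9 were tested, of which miR-804 and miR-3473f rose (22.2%, against 5.81% of all tested) and miR-652-5p and miR-6366 fell (22.2%, against 1.69%). This list was chosen from these arrays, so that its directions are not independent evidence. MiR-5126 had log2 values of 8.88, 8.81 and 9.12 early and 9.32, 9.31 and 9.49 late and was not called (slope 0.15, limma, adjusted p = 0.295), whereas in the degraded pieces it had 12.32 and 12.85. MiR-149-3p had 2.63, 2.71 and 3.30 early, 3.69, 3.03 and 3.15 late and 5.93 and 7.03 in the degraded pieces.

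The number of detected miRNAs was 403 ± 17.4 (SD, n = 3) early and 415 ± 65.0 (SD, n = 3) late (exact permutation test, 2-sided, p = 1, where 0.1 is the smallest value possible). Over the 6 arrays it had no clear trend with log2(hours + 1) (r = -0.050, exact permutation p = 0.938, adjusted 0.938; rho = -0.37, exact permutation p = 0.497, adjusted 0.497; 2 measures). The late mean was the higher one through the array of 6 h, with 490. Those of 12 and 24 h detected 374 and 381, fewer than each early array (390, 397 and 423). Of 520 miRNAs detected on at least 1 of the 6 arrays, 100 were detected on more late than early arrays. Among these were the 66 flagged at 6 h only. Another 57 were detected on more early than late arrays. MiR-8109 and miR-6769b-3p were detected on 0 early and all 3 late arrays. Their late means were at least 1.74-fold and 1.58-fold higher. For miR-6769b-3p the groups overlapped, since its value at 6 h, although flagged as detected, lay below all early values. MiR-295-5p, miR-499-3p, miR-6351 and miR-3061-5p were detected on all 3 early and 0 late arrays. Their late means were at least 1.85-fold, 1.62-fold, 1.53-fold and 1.32-fold lower. For miR-499-3p the groups overlapped, with the value at 12 h above that at 1 h. The fold bounds set the mean of the detected group against, on each other array, the larger of the lowest detected value and the miRNA's own. Of these 6 miRNAs, miR-8109 and miR-295-5p passed the test for trend.

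The third question was whether the slopes differ from those in the cold and in another tissue. For this, heart at 4 °C (1, 3, 6, 12 and 24 h, n = 5, RIN 8.5 to 8.8) and brain at RT (0 to 24 h, n = 6, RIN 7.3 to 8.7) were used. Each lies on a slide of its own with the same order of times. In heart at 4 °C 21 of 400 miRNAs were called for trend (5.25%), all rising, and in brain 40 of 372 (10.8%), of which 39 rose and 1 fell.

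The 7 falling miRNAs had a median slope of -0.029 in heart at 4 °C, where 6 had a negative slope (88 of all 400) and 0 were called. MiR-3968 had log2 values of 13.92, 14.02, 13.68, 13.98 and 13.88 from 1 to 24 h at 4 °C. The difference in slope, RT minus 4 °C, was -0.67 ± 0.13 (SE, limma, adjusted p = 0.153). For miR-652-5p (8.55, 8.38, 8.39, 8.06 and 8.03 at 4 °C) it was -0.43 ± 0.11 (SE, adjusted p = 0.153). For miR-6366 (17.02, 17.06, 17.03, 16.99 and 16.93 at 4 °C) it was -0.40 ± 0.10 (SE, adjusted p = 0.153). None of these differences passed across the 400 miRNAs.

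In brain at RT the called falling miRNA was miR-3968, with log2 values of 13.13, 11.72, 12.14, 11.41, 10.75 and 10.24 (slope -0.56 ± 0.11 SE, limma, adjusted p = 0.0153). Of the 6 falling miRNAs measured in brain 5 had a negative slope, as had 90 of all 372. MiR-487b-3p was the exception, with 7.59 at 0 h and 8.18 at 24 h.

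Of the 24 rising miRNAs, 22 were measured in heart at 4 °C, where 21 had a positive slope (312 of all 400) and 5 were called, namely miR-344i, miR-804, miR-134-5p, miR-6538 and miR-7226-5p. In brain 23 were measured, 23 had a positive slope (282 of all 372) and 16 were called. MiR-344i had log2 values of 3.48, 4.83, 5.88, 6.98 and 7.58 from 1 to 24 h at 4 °C, a slope of 1.15 ± 0.071 (SE). MiR-804 had slopes of 1.31 ± 0.13 in heart at RT, 1.08 ± 0.16 at 4 °C and 1.54 ± 0.28 in brain (SE). MiR-709 had 8.13, 8.45, 8.39, 8.46 and 8.59 at 4 °C, and its difference in slope, RT minus 4 °C, was 0.48 ± 0.12 (SE, limma, adjusted p = 0.153).

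**Figure D5:**
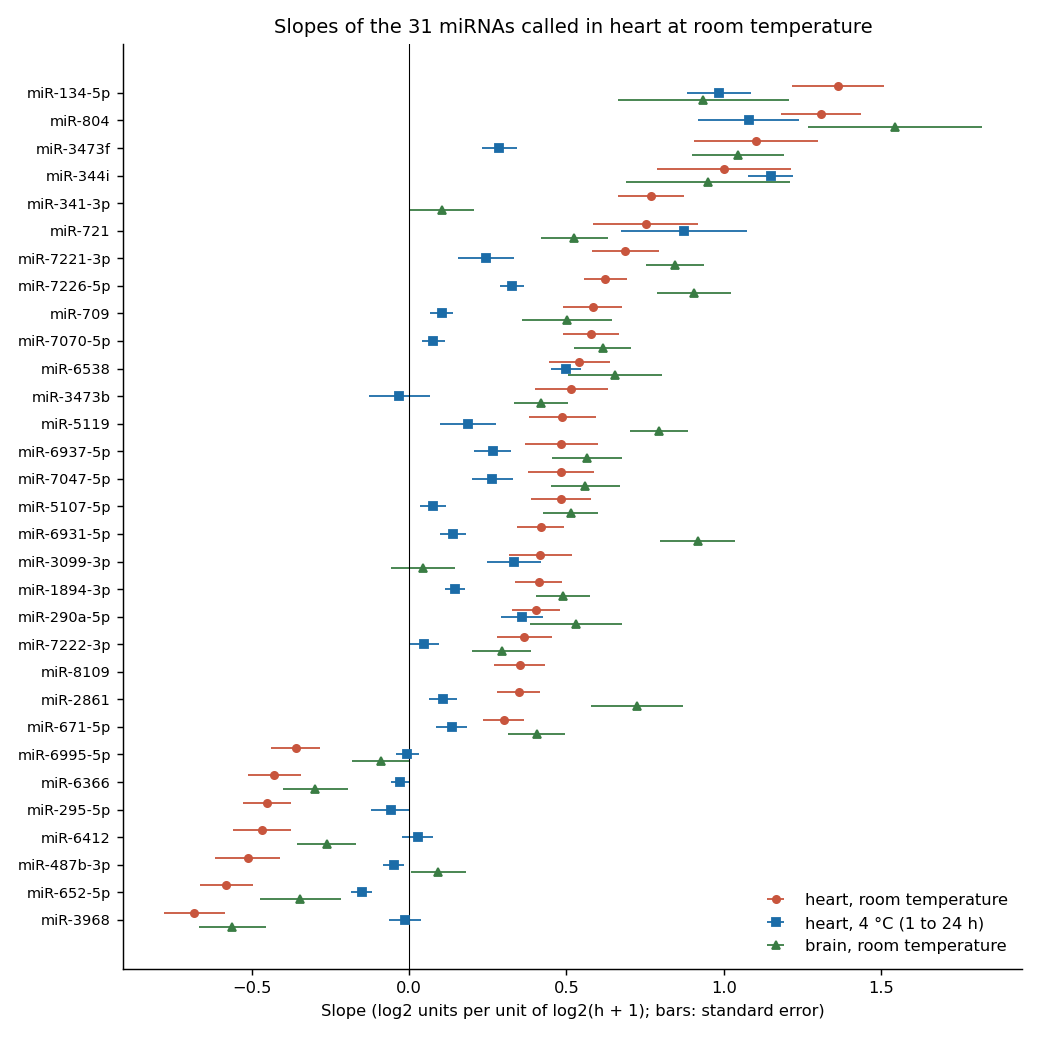
Slopes over the first 24 h (log2 units per unit of log2(h + 1), bars show the standard error) of the 31 miRNAs called in heart at RT, beside those in heart at 4 °C and in brain at RT. Markers are left out where a miRNA was not measured. The falling miRNAs have a median slope of -0.029 at 4 °C, and most rising ones have positive slopes on all 3 slides.

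The tests of the difference gave 0 calls. With slopes, 0 of 400 miRNAs differed between heart at RT and at 4 °C (0%; 46 at an unadjusted p-value below 0.05) and 0 of 372 between heart and brain at RT (0%; 22 unadjusted). With late minus early means, 0 of 400 (75 unadjusted) and 0 of 372 (18 unadjusted) differed. Without the heart array of 6 h at RT, 17 of 400 late minus early differences between RT and 4 °C passed. Temperature, animal and slide cannot be told apart in the one comparison, nor tissue and slide in the other.

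The pieces of 48 and 96 h had no part in the choice of the 31 miRNAs. Of the 24 rising miRNAs 20 were higher at 48 h than at 24 h, as were 306 of all 413, and of the 7 falling ones 4 were lower, as were 107 of all 413. MiR-344i, miR-804, miR-134-5p and miR-290a-5p were the rising miRNAs with lower values at 48 h than at 24 h. MiR-2861 went from 8.13 at 24 h to 11.66 and 11.81, and miR-6931-5p from 7.36 to 10.66 and 11.28.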

How the data were processed

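RNA was labelled and hybridised to 1-colour Agilent mouse miRNA arrays, 1 tissue piece per array. Arrays were read by the authors with Agilent Feature Extraction, whose deposited gene intensities are background subtracted and whose detection flag marks each miRNA as detected or not. The log2 values used here were deposited by the authors after variance stabilizing normalization, and were taken as deposited. Groups follow the labels for tissue, temperature and time. The 413 miRNAs detected on at least 3 of the 6 arrays were fitted with limma 3.58.1 in R 4.3.3 (lmFit and eBayes), once for late minus early means and once for a slope on log2(hours + 1), with Benjamini-Hochberg adjustment over all tested and a threshold of 0.05. Slides were compared by differences fitted within each. The heart array of 0 h at 4 °C, which the study had set aside, was left out. The scripts were tested on simulated data.

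The named miRNAs were the 10 with the smallest p-values in each direction of the group comparison, the steepest called slopes, each among miRNAs detected on all 6 arrays, and members of the lists. Rising miRNAs not detected on all 6 arrays, and some list members below the 4 most abundant, were named in addition after their values had been seen, as were the called miRNAs chosen for the other slides. The miRNAs, lists and tests were chosen with earlier results of these data known. Alternatives changed the scaling (75th percentile, quantile, none), the background correction (normexp with an offset of 50 on median signals, as mean signals were not used here), the detection filter, the test and the arrays included.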

Additional observations from a re-analysis of the deposited data

How the results depend on the processing

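The comparison of late with early means, with 0 calls as given, depended on the setting. It gave 21 calls (18 higher, 3 lower) after scaling to the 75th percentile of the always-detected miRNAs, 63 (18 and 45) with quantile normalization, 85 (18 and 67) with normexp background correction, 7 with the filter of 5 of 45 arrays and 27 (21 and 6) with the spread of all 15 heart arrays. Leaving out 1 array gave between 0 and 31 calls, with 15 without 3 h, 31 without 6 h and 14 without 12 h. These scalings moved the median difference of all tested miRNAs to -0.16 with quantile normalization and 0.11 without scaling. Without the array of 6 h it was -0.18. The cause was not tested.

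The trend, with 31 calls as given, had between 3 and 60 when 1 array was left out (6 without 0 h, 3 without 1 h, 20 without 3 h, 60 without 6 h, 11 without 12 h and 9 without 24 h). It had 4 with Bonferroni adjustment, 5 with time in hours and 13 with miR-451a as a covariate, the last added after seeing the data. The other 10 settings gave between 23 and 45 calls. The split of rising and falling calls was 24 and 7 as given, 24 and 12 after scaling to the 75th percentile of the always-detected miRNAs, 19 and 22 with quantile normalization and 15 and 30 with normexp. The slopes of the 31 miRNAs were compared over 17 alternatives, which leave out time in hours. Of these 519 slopes, 316 still passed, 203 did not and 0 changed sign. The number of alternatives that lost a call ranged from 0 for miR-7226-5p to 13 for miR-3099-3p. It was 8 for miR-344i, miR-3473b and miR-6995-5p and 9 for miR-6366. The filter for detection on all 6 arrays gave 23 calls among 338 miRNAs and left out miR-134-5p and miR-804. MiR-134-5p and miR-804 passed under each of the other 16, and miR-7226-5p passed under all 17. With time in hours, where all calls were falling, miR-134-5p, miR-804 and miR-7226-5p did not pass.

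For late minus early means, heart at RT against 4 °C had 0 calls as given, 15 with 75th percentile scaling and between 0 and 17 without 1 array (6 without 3 h, 17 without 6 h, 8 without 12 h). For slopes it had 3 with that scaling and between 0 and 2 without 1 array. Heart against brain had between 0 and 1 calls for means without 1 array, and 2 for slopes with that scaling. These fits of slopes between slides were added after seeing the data. The correlation of the detected count with time was -0.34 over the 413 tested miRNAs. No paired analysis was possible because each time is 1 piece of the same heart, so that replicate numbers mark times and pair no arrays between the groups. With 1 array per time, differences of the size of the spread between pieces were not detectable.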
